A study of Mus musculus with 29 samples.

Results

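The cell division genes described here are 38 genes of DNA replication and mitosis, taken by symbol from a fixed list that runs from the origin licensing factors to the anaphase-promoting complex, among 30818 genes in the deposited expression table. All 38 were in the table, and all 38 passed the filter on low values that kept 19387 genes. They were measured by RNA-seq in the normal mammary fat pad of wild-type C57BL/6N mice, 29 libraries in 6 diet groups. LFCR (5 libraries), MCR (4 libraries) and ICR (5 libraries) were mice made obese on a diet of 60% fat and then given 1 of 3 calorie-restricted diets. The restriction was 30% for LFCR, a low-fat diet, and for MCR, a Mediterranean-style diet, and ICR was restricted intermittently. LFD (5 libraries) were obese mice moved to a low-fat diet without restriction, Obese (5 libraries) stayed on the diet of 60% fat, and Control (5 libraries) ate a control diet throughout. Mice of all 6 groups, Control included, carried a tumor of E0771 cells, a mouse mammary cancer line, injected into the 4th fat pad 25 weeks after the obese mice were first assigned to diets, and the 9th fat pad, on the opposite side, was sampled at the end. Every library is therefore from a tumor-bearing animal. The titles call the samples tumor, while the tissue field calls them contralateral normal mammary tissue. Nothing in the labels says more of the replicates than separate sample names, so a p-value here covers only differences among these libraries, some of which may be technical.

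A cell that divides first copies its DNA and then separates the copies. In G1 the factors Cdc6 and Cdt1 load the helicase subunits Mcm2 to Mcm7 onto replication origins. Pcna, the sliding clamp of the DNA polymerases, and the enzymes Rrm1, Rrm2 and Tyms, which supply nucleotides, then serve S phase. E2f1 drives transcription at the entry to S phase, and Mybl2 and Foxm1 drive the later genes of G2 and mitosis. Cyclins bind and activate kinases: E cyclins (Ccne1, Ccne2) at the start of S phase, and cyclin A2 (Ccna2) and the B cyclins (Ccnb1, Ccnb2) with Cdk1 up to mitosis. Mki67 and Top2a, a chromosome coat protein and a DNA topoisomerase, are the usual markers of dividing cells. A mammary fat pad holds adipocytes, ducts, immune cells and an inguinal lymph node, in which lymphocytes divide, so the node is a source of these transcripts that is separate from fat and epithelium.

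The adipocyte gene Adipoq had 16533 normalized counts or more in every library and the luminal gene Epcam 1258 or more, so adipocytes and ducts were represented throughout. The libraries held 16403903 to 49026986 assigned reads (median 37270234). The 5 libraries of sequencing lane 4 (MCR 2, ICR 2, LFD 3, Obese 3 and Control 3) held 18212783 at most. Every library of the other lanes held 29008340 or more, and no LFCR library was in lane 4. Lymph node content split the libraries into 2 sets. Glycam1, a mucin of the high endothelial venules of lymph nodes, had 2982 to 20616 counts in 21 libraries and 1.52 to 96.4 counts in the other 8. The mean log2 value of 13 B cell genes was 10.0 to 12.6 in the 21 libraries and 5.67 to 6.53 in the 8. The 8 libraries poor in node genes were LFCR 1 and 3, MCR 1, 3 and 4, LFD 1, and Obese 1 and 5, with none in ICR or Control. Whether a node was in the piece of tissue taken cannot be read from the labels.

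Values are given as normalized counts, which are comparable between libraries for 1 gene but not between genes, or as the deposited log2 values, whose differences understate the change of genes with low counts. The spread over the 29 libraries was widest for mitotic genes. The highest library had 22.8 times the count of the lowest for Ccnb2, 21.6 times for Birc5, an inhibitor of cell death that works at the centromere, and 20.7 times for Top2a. It was narrowest for Mcm7 at 1.99 times, Rrm1 at 2.11 times and Ccne2 at 2.17 times. Control 2 was the highest library for 34 of the 38 genes. LFCR 1 was the lowest for 20, MCR 1 for 9 and LFD 1 for 6, and each of these 3 is poor in node genes. The mean log2 value of the 38 genes was 7.75 ± 0.39 in LFCR (SD, n = 5), 7.85 ± 0.63 in MCR (n = 4), 8.07 ± 0.35 in ICR (n = 5), 8.08 ± 0.41 in LFD (n = 5), 8.49 ± 0.18 in Obese (n = 5) and 8.59 ± 0.48 in Control (n = 5).

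**Figure D1:**
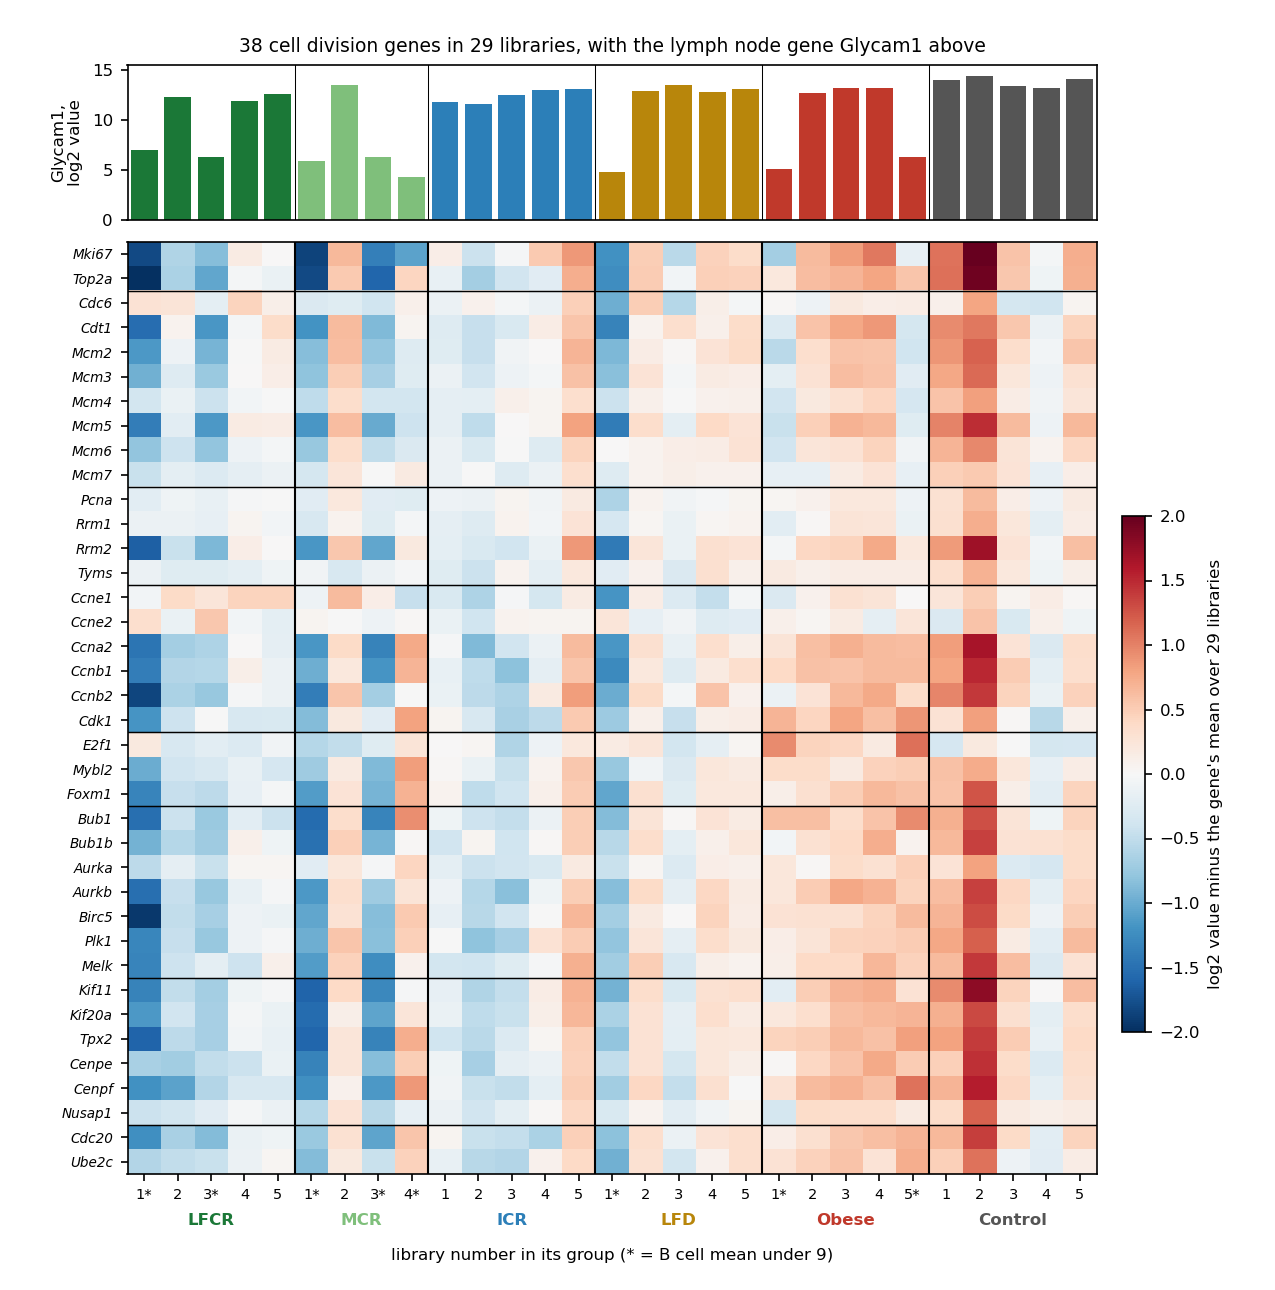
The heat map has 1 row per cell division gene and 1 column per library, with colour for the log2 value minus that gene's mean over the 29 libraries, black lines between roles and groups, and the Glycam1 log2 value as bars above. Control 2 is red in most rows, and LFCR 1, MCR 1, MCR 3 and LFD 1, which have short Glycam1 bars, are blue, while MCR 4, with the shortest bar, is red for many mitotic genes.

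Mki67 had 357, 861, 720, 1476 and 1325 counts in LFCR libraries 1 to 5, and 345, 2067, 491 and 609 counts in MCR libraries 1 to 4. It had 1447, 968, 1288, 1898 and 2430 counts in ICR, and 551, 1861, 894, 1821 and 1712 counts in LFD. It had 809, 2062, 2360, 2752 and 1174 counts in Obese, against 2833, 5629, 1961, 1276 and 2195 counts in Control. Within LFCR, MCR, LFD and Obese the libraries poor in node genes had the lowest Mki67 counts, and all 6 groups overlapped.

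Top2a had 135, 445, 331, 686 and 643 counts in LFCR and 183, 1023, 218 and 959 counts in MCR. It had 636, 434, 537, 604 and 1194 counts in ICR and 283, 1013, 677, 990 and 986 counts in LFD. It had 823, 1096, 1154, 1246 and 1055 counts in Obese, against 1543, 2798, 1038, 665 and 1177 counts in Control. All 5 LFCR libraries lay below all 5 Obese libraries, while Control spanned the Obese range and beyond. Mki67 lies at chr7:135689784-135716361 and Top2a at chr11:98992943-99024189, both on the minus strand of GRCm38.

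**Figure D2:**
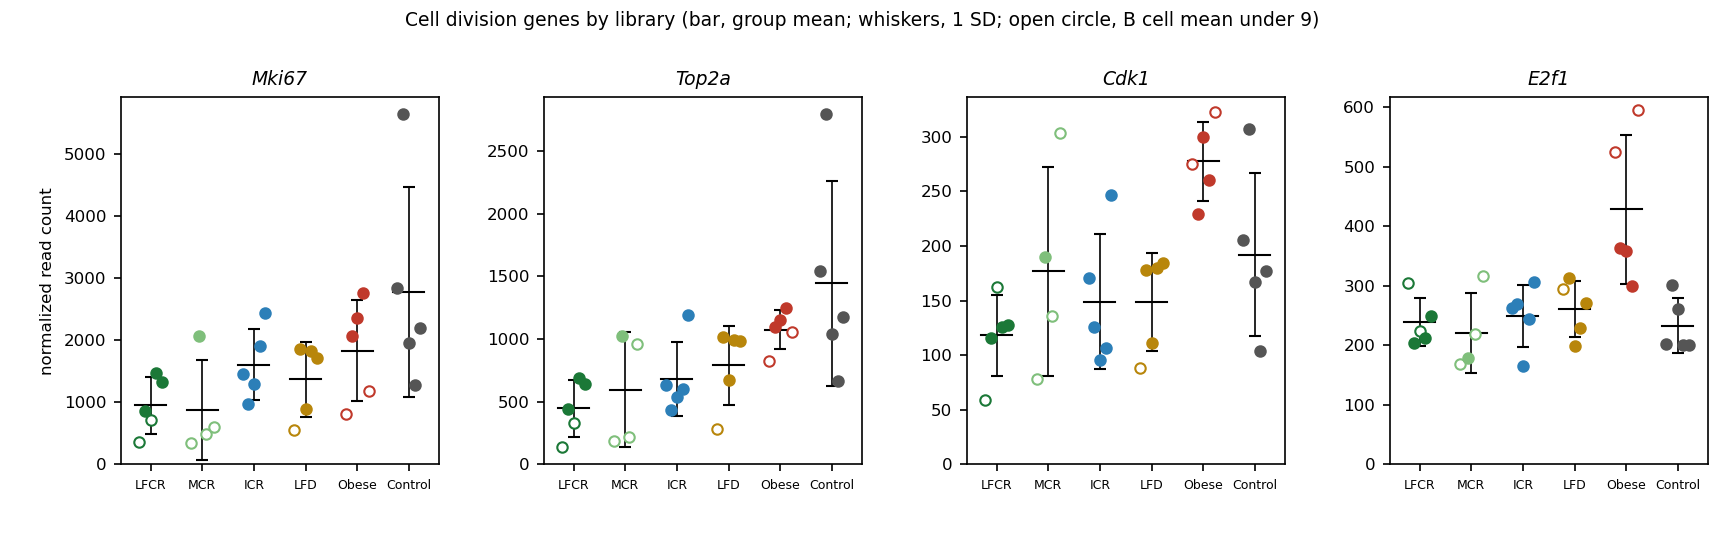
Normalized read counts of Mki67, Top2a, Cdk1 and E2f1 are plotted on linear axes from 0, 1 point per library, with the group mean as a bar and 1 SD as whiskers, and libraries with a B cell mean under 9 as open circles. Top2a and Cdk1 in LFCR lie below every Obese library, and the 2 highest E2f1 points, at 526 and 595 counts, are the 2 Obese libraries poor in node genes.

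Promoters were read for 31 of the 38 genes from RefSeq (GRCm38.p6), taking the 250 bases before the start given there, on the gene's strand. That start can differ from the GENCODE gene positions printed here. The windows of Cdc6, Mcm7 and E2f1 lie inside the gene as GENCODE places it. Both strands were searched for CCAAT, the NF-Y box, for TTTGAA, the core of the cell cycle homology region bound by the DREAM and MuvB complexes, and for the E2F letters TTTGGCGC and TTTCCCGC. None of these hits overlapped another in the promoters printed here. CCAAT was in 22 of 31 (71.0%), against 37.5% of all 27025 genes of the table. TTTGAA was in 8 of 31 (25.8%), against 18.3% of all genes. An E2F motif was in 4 of 31 (12.9%), against 1.51% of all genes, and the 4 are the licensing and helicase genes Cdc6, Mcm5, Mcm6 and Mcm7, which are 4 of the 7 genes of that role with a promoter. These shares describe the letters and not binding.

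The 6 promoters printed are those of the 2 proliferation markers and of the genes with the smallest p-values, among those with a motif, in the 2 tests that the results below turn on. Mcm2 and Mcm5 led the slope on Glycam1, and Mcm6 and Cenpf, a kinetochore protein, followed E2f1 in the test of any difference among the groups. They are written 5′ to 3′ with motif letters in capitals, and a motif on the other strand appears as its reverse complement. ATTGG is then the complement of the NF-Y box, TTCAAA that of the cell cycle homology letters, and GCGCCAAA that of the E2F letters. The regions are chr7:135716380-135716629, chr11:99024190-99024439, chr6:88898781-88899030, chr1:128359706-128359955 and chr1:189688087-189688336, all on the minus strand, and chr8:75109259-75109508 on the plus strand.
Mki67: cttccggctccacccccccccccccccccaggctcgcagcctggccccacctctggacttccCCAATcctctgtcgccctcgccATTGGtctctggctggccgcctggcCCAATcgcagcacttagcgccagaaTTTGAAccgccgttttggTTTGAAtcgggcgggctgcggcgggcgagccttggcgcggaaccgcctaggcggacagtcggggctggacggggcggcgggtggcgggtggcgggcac
Top2a: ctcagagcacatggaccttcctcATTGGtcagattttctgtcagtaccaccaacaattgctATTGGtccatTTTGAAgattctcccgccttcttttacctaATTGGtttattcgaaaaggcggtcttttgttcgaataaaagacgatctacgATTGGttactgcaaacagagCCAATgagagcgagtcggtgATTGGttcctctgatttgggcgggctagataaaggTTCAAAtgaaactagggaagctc
Cenpf: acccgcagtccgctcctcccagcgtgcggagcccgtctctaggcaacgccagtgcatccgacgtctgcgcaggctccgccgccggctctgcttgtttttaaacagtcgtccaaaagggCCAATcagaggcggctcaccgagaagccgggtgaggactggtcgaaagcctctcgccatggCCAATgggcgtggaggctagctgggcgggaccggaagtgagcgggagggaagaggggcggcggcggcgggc
Mcm2: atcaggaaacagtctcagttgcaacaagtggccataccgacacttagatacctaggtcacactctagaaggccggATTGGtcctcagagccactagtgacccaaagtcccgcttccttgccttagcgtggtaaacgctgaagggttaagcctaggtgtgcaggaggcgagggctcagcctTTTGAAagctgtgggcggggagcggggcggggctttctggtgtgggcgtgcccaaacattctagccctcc
Mcm5: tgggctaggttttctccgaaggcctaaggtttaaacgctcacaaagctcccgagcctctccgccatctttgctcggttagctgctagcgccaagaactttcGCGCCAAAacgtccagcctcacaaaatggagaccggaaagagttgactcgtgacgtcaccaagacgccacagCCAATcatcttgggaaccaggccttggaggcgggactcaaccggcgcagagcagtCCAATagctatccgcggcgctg
Mcm6: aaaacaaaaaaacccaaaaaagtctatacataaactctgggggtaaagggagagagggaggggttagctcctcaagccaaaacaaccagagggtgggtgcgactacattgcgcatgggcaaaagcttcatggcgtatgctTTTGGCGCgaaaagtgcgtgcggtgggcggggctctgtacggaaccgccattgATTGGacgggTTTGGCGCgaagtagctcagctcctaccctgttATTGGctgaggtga
Top2a had 6 CCAAT and 2 TTTGAA hits and Mki67 3 and 2, while Mcm6 had 2 CCAAT and 2 E2F hits and Mcm5 had 2 and 1.

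The check on lymph node content was the slope of each gene on Glycam1 within diet groups, in log2 units per log2 unit of Glycam1. Of the 38 genes, 25 rose with Glycam1 and 1 fell (limma, adjusted p under 0.05), where 51.6% of all genes were called, 25.6% higher and 26% lower. With lane as a term 12 rose and 1 fell, where 41.8% of all genes were called, and the median slope of the 38 was 0.045, against 0.078 without lane. The clearest slopes were in replication genes. Of the 8 licensing and helicase genes, 7 rose, among them Mcm2 at 0.15 ± 0.02 (SE; adjusted p = 6.69e-07), Mcm5 at 0.18 (adjusted p = 1.13e-06) and Cdt1 at 0.18 (adjusted p = 1.3e-06). Mki67 rose at 0.20 ± 0.03 (adjusted p = 1.21e-05) and Top2a at 0.15 ± 0.04 (adjusted p = 0.00526). E2f1 fell, at -0.05 ± 0.02 (adjusted p = 0.0132). Cdk1 (0.03, adjusted p = 0.472), Cenpf (0.04, adjusted p = 0.324), Bub1 (0.07, adjusted p = 0.137) and Tyms (0.00, adjusted p = 0.833) were among the 12 genes not called.

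Mcm2 had 213 and 252 counts in LFCR 1 and 3, the LFCR libraries poor in node genes, and 466, 498 and 567 counts in the other 3. In MCR it had 266, 282 and 418 counts in MCR 1, 3 and 4 and 786 in MCR 2. It had 423, 359, 475, 506 and 821 counts in ICR, where every library is rich in node genes. The libraries poor in node genes are the low ones in both LFCR and MCR. It had 259 counts in LFD 1 and 561, 510, 615 and 661 in the other LFD libraries. It had 339 and 377 counts in Obese 1 and 5 and 640, 763 and 754 in the others, against 953, 1171, 645, 483 and 748 counts in Control. In every group with both kinds of library, those poor in node genes had the lowest Mcm2 counts. Mcm5 had 150, 369, 179, 485 and 480 counts in LFCR, 177, 673, 202 and 314 in MCR and 378, 295, 431, 449 and 768 in ICR. It had 148, 555, 374, 574 and 528 counts in LFD and 310.5, 607, 715, 689 and 357 in Obese, against 878, 1237, 678, 398 and 688 in Control. The lowest Mcm5 counts within each mixed group were likewise in its libraries poor in node genes. Among the genes of other lists, all 13 B cell and all 10 T cell genes rose with Glycam1, as did 15 of 28 other replication genes, led by Pold1, the DNA polymerase delta catalytic subunit (0.15, adjusted p = 4.26e-09), and Gins3, a subunit of the replicative helicase (0.11, adjusted p = 3.35e-07), with 1 of the 28 lower. Of 37 other mitosis genes, 22 rose, led by Cenpa, the centromeric histone (0.15, adjusted p = 1.73e-05), and Smc4, a condensin subunit (0.16, adjusted p = 2.41e-05), and 2 fell. Within the 21 libraries rich in node genes alone, 8 of the 38 still rose with Glycam1, where 9.88% of all genes rose, and 6 of these are Cdt1, Mcm2, Mcm3, Mcm4, Mcm5 and Mcm6.

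**Figure D3:**
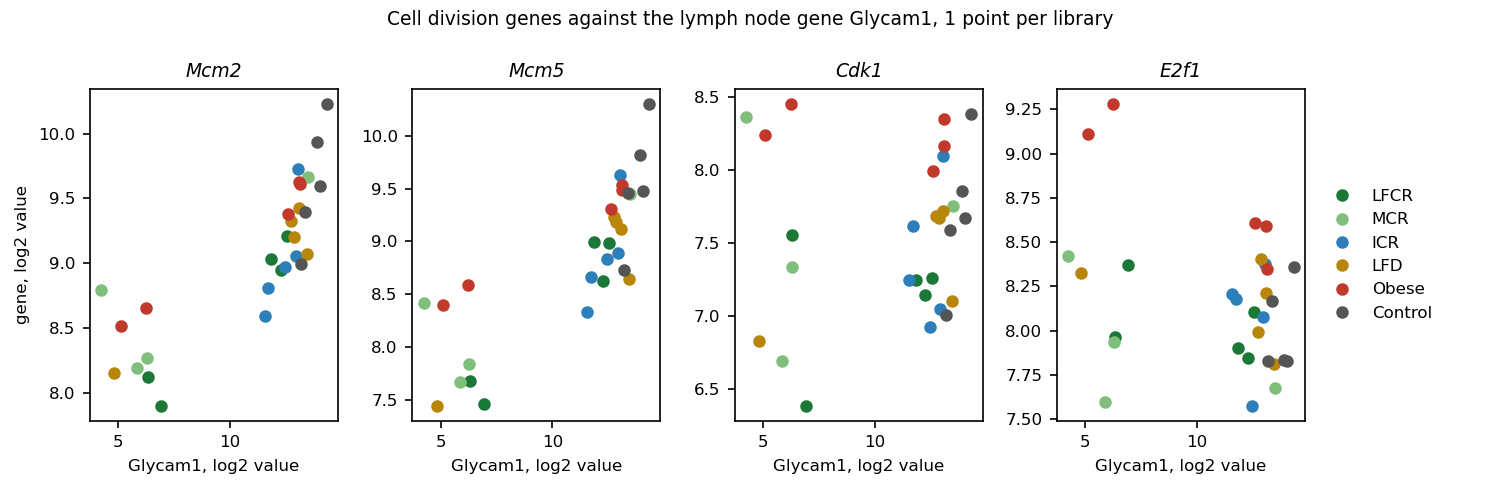
The log2 values of Mcm2, Mcm5, Cdk1 and E2f1 are plotted against the log2 value of Glycam1, 1 point per library, coloured by diet group. Mcm2 and Mcm5 are low in the 8 libraries at the left and high at the right, Cdk1 spans its range at both ends, and the highest E2f1 points are 2 Obese libraries at the left.

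A slope on the mean of 18 luminal epithelium genes was fitted in the same way. It called 1 of the 38 genes, where 3.72% of all genes were called and 0.284% lower. Cdc6 had 138, 135, 91.4, 156 and 120 counts in LFCR, 84.4, 87.6, 76.7 and 119 in MCR and 98.5, 117, 105, 98.2 and 161 in ICR. It had 43.8, 163, 65.6, 120 and 104 counts in LFD and 110, 99.5, 128, 121 and 123 in Obese, against 119, 206, 79.7, 76.7 and 114 in Control. Cdc6 fell with the luminal mean, at -0.55 ± 0.15 log2 units per log2 unit (adjusted p = 0.0394). All 38 slopes were negative, with a median of -0.36. Without Control 2 the Cdc6 slope was not called (adjusted p = 0.367).

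Obese against Control asked what obesity changed. E2f1 was the only cell division gene of the 38 to pass the test. It had 526, 364, 359, 300 and 595 counts in Obese, against 202, 302, 261, 201 and 201 counts in Control. The lowest Obese library lies just below the highest Control library, and the other 4 Obese libraries lie above all of Control. E2f1 was 0.78 ± 0.19 log2 units higher in Obese (limma, adjusted p = 0.00742) and was called with each of the 10 libraries left out, with adjusted p of up to 0.0357 without Obese 5. The share was 1 of 38, where 9.44% of all genes were called higher in Obese and 12.9% in either direction. The E2f1 gene lies at chr2:154559407-154569892 on the minus strand.

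The 2 highest E2f1 counts were in Obese 1 and 5, the libraries poor in node genes, and no Control library is poor in them. Fitted with Glycam1 as a covariate, the difference was 0.59 (adjusted p = 0.0383), where 4.95% of all genes were called higher. Over libraries rich in node genes alone it was 0.51 (adjusted p = 0.121), where 2.66% were. Trem2, a receptor of lipid-associated macrophages, had 811, 534, 581, 126 and 609 counts in Obese, against 33.6, 77.6, 99.7, 45.0 and 20.5 counts in Control. Of 11 lipid-associated macrophage genes, 7 were higher, with Trem2 at 2.72 (adjusted p = 8.18e-05) and Mmp12, a macrophage metalloprotease, at 3.37 (adjusted p = 8.26e-05). Of 12 macrophage genes, 2 were higher, Adgre1 at 0.92 (adjusted p = 0.0265) and Cd68 at 0.87 (adjusted p = 0.0345). The mean log2 level of the lipid-associated macrophage list was 10.7 to 12.4 in Obese and 9.84 to 10.6 in Control, with none of its genes at 0, and its part in the E2f1 difference was not tested. With the mean of the 12 macrophage genes as a covariate E2f1 was 0.66 higher (adjusted p = 0.0282), where 5.65% of all genes were called higher. Of 18 luminal genes, 6 were lower in Obese, and with their mean as a covariate E2f1 was 0.65 higher and not called (adjusted p = 0.068).

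The other 37 genes had no call in Obese against Control. Mki67 differed by -0.55 ± 0.47 (adjusted p = 0.433), Top2a by -0.27 ± 0.46 (adjusted p = 0.716) and Cdk1 by 0.54 ± 0.28 (adjusted p = 0.206). The median difference of the 38 was -0.13, against -0.03 over all genes. The sign of both markers turned with Glycam1 in the fit, where Mki67 differed by 0.20 and Top2a by 0.27. Within the 4 sequencing lanes that hold both groups, the median of the 38 ran from -0.88 to 0.68. In the other lists, Orc6, an origin recognition subunit (0.44, adjusted p = 0.0372), Anln, a cytokinesis protein (1.20, adjusted p = 0.00824), and Ccnd2, a D cyclin of G1 (0.53, adjusted p = 0.0402), were higher in Obese, as 1 of 28, 1 of 37 and 1 of 6 genes of their lists.

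LFCR against Obese had the most calls among the weight-loss diets. No fit set LFCR alone against another of these diets, so the counts do not show that the diets differ. Of the 38 genes, 17 were lower in LFCR and 0 higher, where 9.42% of all genes were called lower and 21.4% in either direction. The 17 genes were Ccna2, Ccnb1, Ccnb2 and Cdk1, the 3 transcription factors E2f1, Mybl2 and Foxm1, the kinases Bub1 and Aurkb with its partner Birc5, the spindle and kinetochore proteins Kif20a, Tpx2, Cenpe and Cenpf, the anaphase-promoting complex activator Cdc20 and its conjugating enzyme Ube2c, and Top2a. None of the 8 licensing and helicase genes and none of the 4 clamp and nucleotide genes was called by limma, while 2 of the 8 and 2 of the 4 had an unadjusted p under 0.05. Whether the roles differ in their response was not tested. The median difference of the 38 was -0.83, against -0.04 over all genes. In bulk tissue, fewer dividing cells and less of each transcript per cell cannot be told apart.

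Cdk1, the kinase of mitotic entry, at chr10:69335146-69352938 on the minus strand, had 58.9, 116, 162, 126 and 128 counts in LFCR, against 275, 229, 299, 261 and 323 counts in Obese. The highest LFCR library lies below the lowest Obese library. Cdk1 was 1.12 ± 0.28 log2 units lower in LFCR (difference -1.12, adjusted p = 0.00534). E2f1 had 305, 204, 224, 213 and 249 counts in LFCR, against the 300 to 595 counts of Obese given above, with LFCR 1 just above the lowest Obese library. It differed by -0.75 ± 0.19 (adjusted p = 0.00471). Cenpf had 66.9, 76.7, 116, 146 and 145 counts in LFCR, against 234, 303, 318, 295 and 427 counts in Obese, and differed by -1.36 ± 0.34 (adjusted p = 0.00547). Bub1, a spindle checkpoint kinase, had 13.4, 49.7, 35.8, 62.0 and 50.2 counts in LFCR, against 126, 126, 103, 124 and 168 counts in Obese, and differed by -1.28 ± 0.37 (adjusted p = 0.0126). Both were lower in every LFCR library than in every Obese library.

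The remaining called genes ran from -0.79 (Ube2c, adjusted p = 0.04) to -1.38 (Top2a, adjusted p = 0.0337). Mki67 differed by -0.95 ± 0.47 and did not pass (adjusted p = 0.159). Among replication genes Mcm6 came nearest (-0.53 ± 0.20, adjusted p = 0.0629), and Mcm2 differed by -0.51 ± 0.32 (adjusted p = 0.285) and Pcna by -0.18 ± 0.13 (adjusted p = 0.344). Ccne1 (0.22, adjusted p = 0.5), Cdc6 (0.10, adjusted p = 0.787) and Ccne2 (0.03, adjusted p = 0.917) were the 3 genes with positive differences. For 18 of the 38 genes every LFCR library lay below every Obese library, which held for 6.23% of all genes.

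This comparison can be split by node genes, since 2 of 5 libraries were poor in node genes in each group. Both sets are parts of the libraries compared above. The 18 genes with every LFCR library below every Obese library must therefore be lower in both. Over the libraries poor in node genes, LFCR 1 and 3 against Obese 1 and 5, 32 of the 38 genes were lower in both LFCR libraries, against 32.7% of all genes. The median difference there was -1.03, and E2f1 was called (-1.03, adjusted p = 0.049), where 7.93% of all genes were called lower. Over the 3 libraries rich in node genes in each group, 32 of 38 were also lower in all 3 LFCR libraries, against 26.7% of all genes, with a median of -0.62. The genes that passed there were Cenpf (-1.20, adjusted p = 0.0255), Cdk1 (-0.95, adjusted p = 0.0336), Bub1 (-0.87, adjusted p = 0.0337), and Cenpe (-0.997, adjusted p = 0.0389), where 7.86% of all genes were called lower. A fit with Glycam1 as a covariate called 29 of the 38 lower, all 17 among them and 5 of the 8 licensing and helicase genes, where 17.2% of all genes were called lower, and the median was -0.83.

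**Figure D4:**
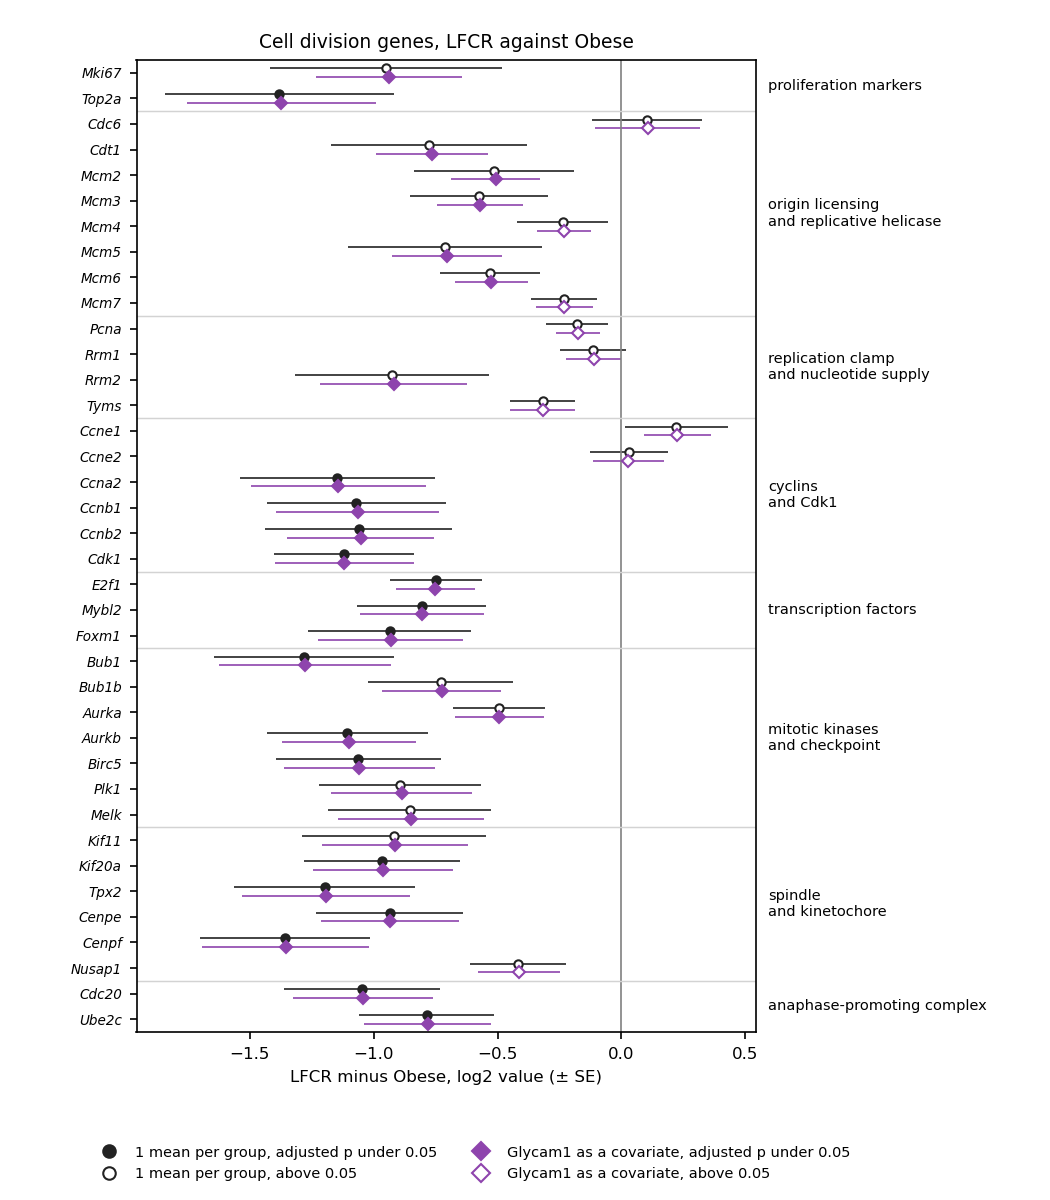
Each of the 38 genes has its difference LFCR minus Obese in log2 units with 1 SE, from 1 mean per group (circles) and with Glycam1 as a covariate (diamonds), filled where the adjusted p is under 0.05, in order of role. The points hardly move when Glycam1 is added, the error bars of the licensing and helicase genes shorten, and 29 diamonds are filled against 17 circles.

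LFCR 1 carried part of the count. Without it 4 genes were called, Cdk1, Cenpf, Bub1 and E2f1, and these 4 were called with each of the 10 libraries left out in turn. The share of all genes called without LFCR 1 is not given, so the lower count cannot be set against it. Without LFCR 1 the difference was -0.94 for Cdk1 (adjusted p = 0.0223) and -1.04 for Top2a (adjusted p = 0.12). Within the 4 lanes that hold both groups the median of the 38 ran from -0.44 to -1.22. All 17 genes were lower in the LFCR library of each lane. These genes were called from the same libraries, so their direction within lanes is no separate check. Macrophage genes were lower too. Of 12, 8 were lower in LFCR, led by Itgam, an integrin of myeloid cells (-1.57, adjusted p = 2.88e-05), and Cd68, a lysosomal protein of macrophages (-1.57, adjusted p = 0.000177). The mean log2 level of the list was 9.49 to 10.62 in LFCR and 10.60 to 11.2 in Obese, with no gene at 0. Of 11 lipid-associated macrophage genes, 6 were lower, with Mmp12 at -3.95 (adjusted p = 5.09e-06) and Trem2 at -2.60 (adjusted p = 3.42e-05). With the macrophage mean as a covariate 0 of the 38 were called, where 1.18% of all genes were called lower, and the median difference was -0.99. With the luminal mean as a covariate 9 were called lower (8.51% of all genes). With lane as a term 22 were called lower, where 19.3% of all genes were called in either direction.

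Genes of the same processes outside the 38 were counted in the same way. Of 37 other mitosis genes, 20 were lower in LFCR, with Spc25, a kinetochore subunit, at -1.08 (adjusted p = 0.000606) and Nek2, a centrosome kinase, at -1.38 (adjusted p = 0.00171). Of 28 other replication genes, 2 were lower, Prim2, a primase subunit, at -0.33 (adjusted p = 0.0281) and Chaf1a, a histone chaperone of replication, at -0.40 (adjusted p = 0.038). None of 6 G1 cyclins and kinases was called by limma, and 0 had an unadjusted p under 0.05. Of 8 kinase inhibitors and pocket proteins, Cdkn1a, which encodes p21, was lower (-1.44, adjusted p = 5.6e-05) and Cdkn2c, which encodes p18, higher (1.78, adjusted p = 0.000156). No B cell gene of 13 was called, and 1 of 8 germinal centre B cell genes was lower, S1pr2 at -0.68 (adjusted p = 0.00375). Of the 12 lower genes with a promoter, TTTGAA was in 5 and an E2F motif in 0, against 3 and 4 of the 19 genes not called.

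The other weight-loss diets are set against the same 5 Obese libraries, so their differences share whatever is particular to those libraries. MCR against Obese called 2 genes lower, where 5.69% of all genes were called lower and 12.4% in either direction. E2f1 had 168, 179, 219 and 317 counts in MCR, and only MCR 4 reaches the Obese range. It differed by -0.88 ± 0.20 (adjusted p = 0.00465) and was called with each of the 9 libraries left out. E2f1 was not called with only the groups compared in the fit (adjusted p = 0.0649) or with the macrophage mean as a covariate (-0.56, adjusted p = 0.276), fits in which 0 of the 38 were called and the median differences were -0.70 and -0.78. Kif20a, a kinesin of cytokinesis, had 35.0, 159, 57.0 and 176 counts in MCR, against 171, 190, 233, 241 and 245 counts in Obese, and differed by -1.05 ± 0.33 (adjusted p = 0.0385). It was called in 3 of the 9 fits with a library left out. The median difference of the 38 was -0.70, and within the 3 lanes that hold both groups it was -0.16, -1.14 and -1.38. Mki67 differed by -1.25 ± 0.50 (adjusted p = 0.102) and Top2a by -1.19 ± 0.49 (adjusted p = 0.116).

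MCR libraries went apart for these genes. MCR 4 had the lowest Glycam1 count of all 29 libraries, 1.52, yet 303 counts of Cdk1, 959 of Top2a and 222 of Mybl2, the highest Mybl2 of any library. MCR 1 and 3, also poor in node genes, had 78.4 and 136 counts of Cdk1, 183 and 218 of Top2a, and 60.5 and 50.8 of Mybl2. The mean log2 value of the 38 was 8.34 in MCR 4, against 7.22 and 7.40 in MCR 1 and 3. The count of genes called was 14 without MCR 2 and 9 without MCR 4, and 15 without MCR 4 and with Glycam1 as a covariate. The shares of all genes called in these fits are not given, so the counts cannot be set against them. With Glycam1 and all MCR libraries 1 of the 38 was called, where 17.7% of all genes were called in either direction. Over libraries rich in node genes MCR has 1 library, so no calls are counted. The median difference of the 38 there was -0.13, against 0.045 over all genes. Of 37 other mitosis genes, 6 were lower in MCR, led by Spc25 (-1.10, adjusted p = 0.00233) and Smc2, a condensin subunit (-0.83, adjusted p = 0.00779). Of 28 other replication genes, Pola2, a subunit of DNA polymerase alpha, was lower (-0.43, adjusted p = 0.00779) and Gins1, a helicase subunit, higher (0.45, adjusted p = 0.0431). Cdkn2c was higher (1.89, adjusted p = 0.000465) and Cdkn1a lower (-1.21, adjusted p = 0.00142). Of 12 macrophage genes, 6 were lower.

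ICR against Obese called E2f1, where 5.23% of all genes were called lower and 9.21% in either direction. E2f1 had 264, 269, 165, 244 and 307 counts in ICR, and ICR 5 lies just above the lowest Obese library. It differed by -0.70 ± 0.19 (adjusted p = 0.0165) and was called in 7 of 10 fits with a library left out. The E2f1 call was lost over node-rich libraries (-0.43, adjusted p = 0.0981), with only the groups compared (adjusted p = 0.063), and with the luminal (-0.62, adjusted p = 0.0645) or macrophage mean (-0.55, adjusted p = 0.0821) as a covariate. With lane as a term 7 of the 38 were called lower, E2f1 among them, where 8.06% of all genes were called in either direction. All 38 differences were negative, with a median of -0.45, against 0.005 over all genes. Within the 4 lanes that hold both groups the median ran from -0.99 to 0.10. In lane 1, which pairs ICR 5 with Obese 5, 14 of the 38 were lower. Cdk1 had 170, 126, 95.9, 106 and 247 counts in ICR and differed by -0.85 ± 0.28 (adjusted p = 0.0565). Mki67 differed by -0.12 ± 0.47 (adjusted p = 0.912) and Top2a by -0.71 ± 0.46 (adjusted p = 0.384). All 5 ICR libraries are rich in node genes and 2 Obese libraries are not. Adding Glycam1 as a covariate called 10 of the 38 lower, where 11.8% of all genes were called lower, led by Ccne1 (-0.50, adjusted p = 0.0141) and E2f1 (-0.58, adjusted p = 0.0145). Of 37 other mitosis genes, 3 were lower, led by Spc25 (-1.15, adjusted p = 0.00113) and Anln (-1.13, adjusted p = 0.0135), and Cdkn1a was lower (-1.12, adjusted p = 0.00199). Of 12 macrophage genes, 4 were lower.

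LFD against Obese called E2f1, where 3.28% of all genes were called lower and 5.98% in either direction. E2f1 had 295, 313, 198, 228 and 271 counts in LFD, with LFD 2 above the lowest Obese library. It differed by -0.64 ± 0.19 (adjusted p = 0.0411) and was called in 3 of 10 fits with a library left out, with adjusted p of up to 0.127 without Obese 5. The E2f1 call was also lost with no filter (adjusted p = 0.0589), with quantile normalization (adjusted p = 0.0563), over node-rich libraries (adjusted p = 0.195), with only the groups compared (adjusted p = 0.112) and with the macrophage mean as a covariate (adjusted p = 0.087). Cdk1 had 88.6, 178, 111, 180 and 184 counts in LFD, all below the lowest Obese library, and differed by -0.84 ± 0.28 (adjusted p = 0.0782). Every LFD library lay below every Obese library for 4 of the 38 genes, which held for 3.02% of all genes. Mki67 differed by -0.42 ± 0.47 (adjusted p = 0.704) and Top2a by -0.55 ± 0.46 (adjusted p = 0.577). The median of the 38 was -0.43, against -0.002 over all genes, and within the 4 lanes that hold both groups it ran from -0.88 to -0.13. Adding Glycam1 called 4 genes lower, Ccne1 (-0.55, adjusted p = 0.0112), E2f1, Cdk1 and Pcna, where 7.11% of all genes were called lower. Luminal genes moved with this comparison. Of 18, 11 were higher in LFD, and the list's mean log2 level was 10.3 to 11.8 in LFD and 9.53 to 10.2 in Obese. With the luminal mean as a covariate 0 of the 38 were called, where 0.0309% of all genes were called lower, and the median was 0.03. The SE of Mki67 in that fit was 0.64. LFD and Obese did not overlap in the luminal mean, so its part and that of diet cannot be told apart here. Of 37 other mitosis genes, 1 was lower, Spc25 (-0.94, adjusted p = 0.0102), and Cdkn1a was lower (-0.72, adjusted p = 0.0494).

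Calorie restriction against the unrestricted low-fat diet, as the mean of LFCR, MCR and ICR against LFD, called 0 of the 38 genes, where 3.33% of all genes were called. At an unadjusted p under 0.05 there were 2, Mcm6 (-0.39 ± 0.17) and Ccne1 (0.40 ± 0.17), both with an adjusted p of 0.182 in limma, and voom on the recovered reads also called 0. Ccne1 had 162, 229, 204, 239 and 240 counts in LFCR, 156, 277, 189 and 116 in MCR and 132, 101, 166, 128 and 192 in ICR, against 61.3, 190, 136, 115 and 163 counts in LFD. Its group mean was highest in LFCR. Once Glycam1 was a covariate, Ccne1 was higher in the mean of the restricted groups (0.53 ± 0.11, adjusted p = 0.00912). It was the 1 call among the 38 in that fit, where 2.74% of all genes were called higher. Not all 3 diets shared this. Against Obese in that fit, Ccne1 differed by 0.23 in LFCR and 0.21 in MCR. The difference was -0.50 in ICR, near the -0.55 of LFD. Without the covariate, the restricted mean differed from LFD by -0.35 ± 0.39 for Mki67 (adjusted p = 0.647) and -0.55 ± 0.38 for Top2a (adjusted p = 0.45). Of 28 other replication genes, Cdc45, a helicase cofactor, was higher (0.45, adjusted p = 0.033). Of 18 luminal genes, 6 were lower in the restricted groups.

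Calorie restriction against lean mice, as the mean of LFCR, MCR and ICR against Control, called 30 of the 38 genes lower, where 20.5% of all genes were called lower and 40.4% in either direction. The calls covered every role: both markers, 7 of 8 licensing and helicase genes, all 4 clamp and nucleotide genes, 3 of 6 cyclins with Cdk1, 1 of 3 transcription factors, 6 of 7 mitotic kinases and checkpoint genes, all 6 spindle and kinetochore genes and 1 of 2 genes of the anaphase-promoting complex. Mcm6 had 692, 913, 697, 1133 and 1187 counts in LFCR, 712, 1571, 863 and 993 in MCR and 1120, 983, 1214, 1012 and 1666 in ICR, against 1976, 2408, 1462, 1284 and 1634 counts in Control. All but 2 of the 14 restricted libraries lie below the lowest Control library. It differed by -0.73 ± 0.17 (adjusted p = 0.00283). Kif11, the kinesin that separates spindle poles, had 87.0, 175, 152, 242 and 252 counts in LFCR, 68.2, 348, 91.2 and 253 in MCR and 228, 162, 178, 289 and 434 in ICR, against 518, 954, 359, 260 and 410 counts in Control, and differed by -1.17 ± 0.31 (adjusted p = 0.00656). Mki67 differed by -1.32 ± 0.39 (adjusted p = 0.0117). Cdk1 (-0.35, adjusted p = 0.22) and E2f1 (0.01, adjusted p = 0.972) did not pass.

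These differences moved with node genes and with 1 library. Of the 14 restricted libraries 5 are poor in node genes and of the 5 Control libraries 0, and all 13 B cell genes had negative differences, 3 of them called. Glycam1 had 9330 counts or more in every Control library and 11461 at most in the restricted groups. With Glycam1 as a covariate 2 of the 38 were called, Mcm6 (-0.44, adjusted p = 0.0379) and Tyms, the thymidylate synthase (-0.38, adjusted p = 0.0428), where 4.12% of all genes were called lower. Over libraries rich in node genes 0 were called, where 1.73% of all genes were called lower, and the median was -0.45. Without Control 2, the library highest for 34 of the 38, 3 were called, and Mcm6, Kif11 and Bub1b kept an adjusted p under 0.05, of 0.0206, 0.0438 and 0.045. Of the other lists, 33 of 37 other mitosis genes were lower, led by Smc2 (-0.66, adjusted p = 0.00372) and Ckap2l (-0.91, adjusted p = 0.00378), and 12 of 28 other replication genes, led by Pole2, a subunit of DNA polymerase epsilon (-0.76, adjusted p = 0.00697), and Tk1, thymidine kinase (-0.82, adjusted p = 0.00703). Of the G1 genes Cdk6 (-0.66, adjusted p = 0.00544) and Cdk4 (-0.27, adjusted p = 0.00849) were lower, and of the inhibitors Cdkn2c (1.18, adjusted p = 0.00178) and Cdkn1c (1.04, adjusted p = 0.00415) were higher.

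Over all 6 groups at once, 15 of the 38 genes differed between groups (limma F-test, adjusted p under 0.05), where 33.3% of all genes did. E2f1 led (adjusted p = 0.00876), highest in Obese, followed by Mcm6 (adjusted p = 0.0142) and Cenpf (adjusted p = 0.0189). By role the calls were both markers, 1 of 8 licensing and helicase genes, 0 of 4 clamp and nucleotide genes, 1 of 6 cyclins with Cdk1, 1 of 3 transcription factors, 4 of 7 mitotic kinases and checkpoint genes, 5 of 6 spindle and kinetochore genes, and 1 of 2 genes of the anaphase-promoting complex. Cdc6 (adjusted p = 0.536) and Ccne2 (adjusted p = 0.815) were farthest from a call. The fit with Glycam1 called 9, 7 of them among the 15, where 38.3% of all genes were called, and without LFCR 1 the count was 3, against 29 without MCR 2. The count was 28 with lane as a term (28.1% of all genes), 8 with no filter on low values (18.1%), 3 over libraries rich in node genes (25.8%) and 0 with the macrophage mean as a covariate (14.5%). Of the other lists, 20 of 37 other mitosis genes and 5 of 28 other replication genes differed between groups.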

How the data were processed

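RNA-seq of 29 mouse libraries was analysed from 1 deposited table of 30818 genes. Per the labels' protocols, RNA came out of TRIzol and went through Illumina's stranded kit for total RNA, with paired reads of 76 bases. The submitters' processing notes name the aligner TopHat2 2.0.7, the counter HTSeq 0.5.3p9, the package DESeq2 and the build mm10. The sources used here give no annotation or strand setting, so reads of antisense genes may be included. The authors' deposited values are on a log2 scale with 1 lowest value, 3.75, in every column. Undoing a variance-stabilising transform with that value as 0 reads gave whole reads for 100% of values within a tolerance of 0.01, so the values are taken as variance-stabilised log2 values. This is inferred from the values. Normalized counts printed here are these values with the transform undone. No counting interval is given, since the spread between libraries is the error used.

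The 6 group means were estimated together in limma 3.58.1 (R 4.3.3, statmod 1.5.0), using its trend and robust options, on the 19387 genes with a normalized count of 10 or more in at least 4 libraries. Benjamini-Hochberg adjustment ran over all of these genes with a threshold of 0.05, and every adjusted p printed is from limma. The deposited unit is not counts, so no count model was run, and voom on the recovered reads stood in for it. The fit was tested on simulated data, the outcome of which is not given here. Positions are from GENCODE vM21 (GRCm38, the assembly of mm10), and promoters from RefSeq.

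All 38 genes may be named. Values in every library are given for Mki67, Top2a and up to 2 called genes with the smallest p per comparison and direction, and up to 2 genes are named per other list with a call. Bub1, Cenpf, Cdk1 and Ccne1 in further comparisons were given in full after their values were seen. The members, lists and tests were chosen with earlier results of these data known. Libraries poor in node genes are the 8 with a B cell mean under 9. Alternatives were no filter, voom, quantile normalization, lane, node, luminal and macrophage covariates, and leaving libraries out.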

Additional observations from a re-analysis of the deposited data

Results flagged for a closer look

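Dixon's test for 1 library apart from the rest of its group was made for each of the 38 genes in each of the 6 groups, 228 tests in all, and 15 passed. Chance passes about 1 in 20, so the number is near what chance gives. The libraries were not spread evenly, since 8 of the 15 were LFD 1, the LFD library poor in node genes. In LFD 1 the count was below the other LFD libraries for Cdt1 (101.2), Mcm2 (258.9), Mcm3 (371.8), Mcm4 (742.7), Mcm7 (833.2), Pcna (1129), Rrm2 (64.24) and Bub1 (31.15). MCR 2, the MCR library rich in node genes, stood above the other MCR libraries for Mcm4 (1299) and Pcna (2031). Obese 1, poor in node genes, stood below the other Obese libraries for Ccna2 (333) and Nusap1 (182.7), a spindle protein. LFCR 1, poor in node genes, was low for Mybl2 (45.51). ICR 5 was high for Rrm2 (408.9) and Control 2 for Nusap1 (571.8), and both are rich in node genes. No explanation of these values was tested.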

How the results depend on the processing

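No paired analysis was possible because replicate numbers were given in accession order and only name samples. The lane in the column names was treated as a batch, and the counts with lane as a term are given below. The counts of the 38 genes called changed by more than 1.5 times under the following alternatives. For Obese against Control (1), the count was 0 without the libraries of low B cell mean and with the luminal covariate. For LFD against Obese (1), it was 0 with no filter, with quantile normalization, without the libraries of low B cell mean, with the luminal or macrophage covariate and with only the groups compared, 2 with lane, 3 with the B cell covariate and 4 with Glycam1. For LFCR against Obese (17), it was 4 without the libraries of low B cell mean, 1 with only those libraries, 29 with Glycam1, 28 with the B cell covariate, 9 with the luminal and 0 with the macrophage covariate, and it stayed within 1.5 times with no filter (12), voom (15), quantile normalization (16), lane (22) and only the groups compared (23). For MCR against Obese (2), it was 4 with voom and 15 without MCR 4 and with Glycam1. It was 1 with no filter, Glycam1, the luminal or B cell covariate or only the libraries of low B cell mean. It was 0 with only the groups compared and with the macrophage covariate. Without the libraries of low B cell mean MCR keeps 1 library, and no count is given. For ICR against Obese (1), it was 3 with quantile normalization, 7 with lane, 10 with Glycam1, 9 with the B cell covariate, 4 with only the groups compared, and 0 with the luminal or macrophage covariate. For the restricted diets against LFD (0), it was 1 with Glycam1 or the B cell covariate. For the restricted diets against Control (30), it was 0 without the libraries of low B cell mean and 2 with Glycam1 or the B cell covariate. For any difference (15), it was 8 with no filter, 28 with lane, 3 without the libraries of low B cell mean, 9 with Glycam1 or the B cell covariate, and 0 with the macrophage covariate. For the slope on Glycam1 (26), it was 13 with lane and 8 without the libraries of low B cell mean, and for the luminal slope (1) 0 with no filter, lane or without those libraries. The cause of these changes was not tested, except that fits without libraries hold fewer samples. The B cell and macrophage covariates, the low B cell libraries alone and the fit without MCR 4 were chosen after seeing the data.

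Leaving out 1 library gave 1 to 1 calls for Obese against Control, 0 to 1 for LFD, 4 to 21 for LFCR, 1 to 14 for MCR and 0 to 3 for ICR against Obese, 0 to 0 for the restricted diets against LFD and 3 to 33 against Control, 3 to 29 for any difference, 19 to 33 for the Glycam1 slope and 0 to 2 for the luminal slope. The shares of all genes called with 1 library left out are not given, so these counts cannot be set against them. The sign turned for Mki67 in the restricted diets against LFD without the libraries of low B cell mean (0.042) and for the E2f1 slope without them (0.0091). It turned in Obese against Control for Mki67 (0.20) and Top2a (0.27) with Glycam1, for Mki67 (0.071) and Top2a (0.20) with the B cell covariate, and for Top2a without Control 2 (0.0075), where leaving out 1 library gave -0.50 to 0.0075. With the luminal covariate it turned for Mki67 (0.41) and Top2a (0.040) in LFD and for Mki67 (0.23) in ICR against Obese. Leaving out 1 library gave -0.38 to 0.057 for Mki67 in ICR against Obese, with the sign turned without ICR 2 (0.040), Obese 3 (0.0022) or Obese 4 (0.057). Neither Mki67 nor Top2a passed the test in these fits (limma, adjusted p 0.756 to 0.999).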

Other observations

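Melk, a kinase of dividing cells named in no comparison above, had 12.1 counts in its lowest library, LFCR 1, and 198 in its highest, Control 2. It differed by -0.85 ± 0.33 in LFCR against Obese (adjusted p = 0.0658 in limma). Melk was called lower in the restricted diets against Control (-0.86, adjusted p = 0.0174 in limma). It also rose with Glycam1 within groups (0.08, adjusted p = 0.0295 in limma).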
